A study of Mus musculus with 36 samples.

Results

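The 10 genes described here, Dlx1, Dlx2, Dlx5, Dlx6, Lhx6, Npy, Sst, Pvalb, Vip and Cck, mark the inhibitory interneurons of the forebrain, and they were chosen by name out of 21887 protein-coding genes on the assembled mouse chromosomes. Dlx1, Dlx2, Dlx5, Dlx6 and Lhx6 are transcription factors of interneuron identity. Npy, Sst, Vip and Cck are neuropeptides, and Pvalb is a calcium-binding protein. For each gene, every peak that overlapped the gene body with 10.0 kb on either side was collected, and the bases that peaks covered up to 2.0 kb from either gene end were counted.

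The study mapped the acetylated forms of histone H3 lysine 9 (H3K9ac) and lysine 27 (H3K27ac) by chromatin immunoprecipitation and sequencing (ChIP-seq) in dorsal hippocampus of male mice aged 8 weeks. Its 36 samples form 12 groups of 3 replicates, with 24 immunoprecipitated samples and 12 input samples. The genotypes are labelled Control and ACSS2 KD, and mice of each were untreated or were injected intraperitoneally with ethanol (EtOH) at 2 g/kg, prepared in saline at 20%. The labels describe the knockdown vector as an adeno-associated virus, AAV2/9 U6.shACSS2.CMV.EGFP, injected into the dorsal hippocampus. It expresses a short hairpin RNA against Acss2 from the U6 promoter and a green fluorescent protein from the CMV promoter. What the Control mice received in its place, which cells the virus entered and the time from ethanol to tissue collection are not given in the sources used here. The hairpin acts on messenger RNA, so the peaks do not check the knockdown. ACSS2 makes acetyl-CoA, the donor for histone acetylation, from acetate, and acetate is a product of ethanol metabolism. The comparison asks whether ethanol alters acetylation and whether this needs ACSS2.

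The measurements are 8 deposited peak lists, with 1 list per mark and condition, to which all 3 replicates of that group are tied in their labels. There is therefore no value per mouse, no error between replicates and no test in what follows, and each difference is a difference between lists. The H3K9ac lists held 38235 peaks (Control untreated), 31042 (Control ethanol), 38484 (ACSS2 KD untreated) and 42120 (ACSS2 KD ethanol), and the H3K27ac lists in the same order held 89935, 86110, 101690 and 119317. The read depth of the lists was not given in the sources used here, and a list with more reads can hold more and wider peaks. All values below are given in that order of the 4 conditions.

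As background, the DLX homeodomain proteins switch on the GABA-producing programme in progenitors of the ventral forebrain, and LHX6 acts after them in the cells from the medial ganglionic eminence that become parvalbumin and somatostatin interneurons. Such interneurons are a small minority of hippocampal cells, beside many pyramidal and granule cells. In bulk tissue, fewer cells of a type and less acetylation per cell cannot be told apart. Of 20 excitatory neuron markers, 17, 15, 17 and 17 had an H3K9ac peak near an end, and 17, 18, 18 and 18 had an H3K27ac peak. Of 16 markers of striatum and neighbouring regions, 10, 11, 11 and 13 had an H3K9ac peak and 13 an H3K27ac peak in each list. Such counts therefore do not tell hippocampus from nearby tissue. Prox1, the transcription factor of dentate granule cells, was covered in all 8 lists, but it is also among the regulators of inhibitory neurons listed below.

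Most of the interneuron genes carried no H3K9ac peak at their ends, and 3 of 10 had no peak of either mark there in any list. H3K9ac peaks lay near an end of 2 of 10 members in each list, and the pair was Cck and Pvalb every time. The same count over all protein-coding genes was 60.8%, 57.5%, 60.0% and 61.3%. H3K27ac peaks lay near an end of 2, 5, 3 and 5 members, against 63.9%, 64.1%, 65.4% and 66.8% of all genes. Cck and Pvalb were covered in all 8 lists and Dlx1, Sst and Vip in none, while 56.0% of all genes were covered in all 8 lists and 31.3% in none. The other 5 members had an H3K27ac peak in 1 or 2 lists. With the gene body and 10.0 kb on either side, 3 members had an H3K9ac peak in each list and 3, 6, 4 and 6 had an H3K27ac peak, since Sst joined Cck and Pvalb, and the background was 66.1% to 75.0%.

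**Figure D1:**
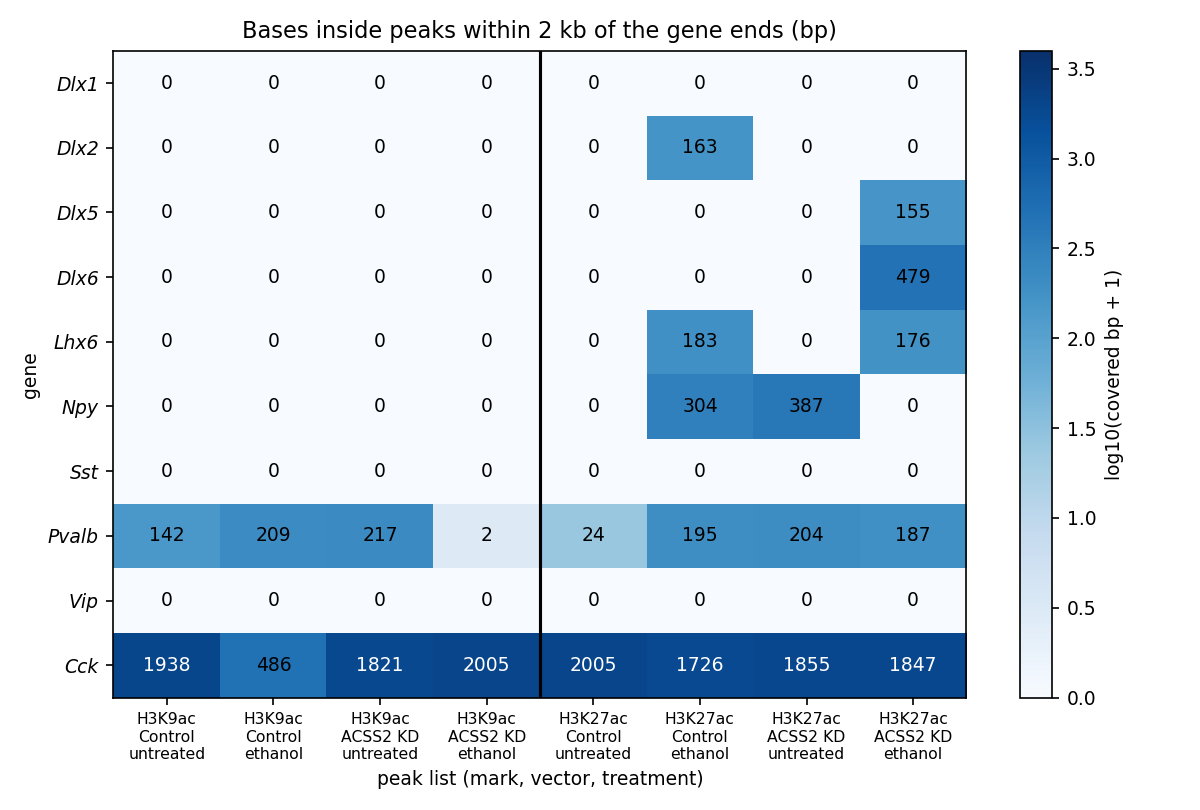
Covered bases near the gene ends (up to 2 kb away, in bp, printed in each cell; colour is log10 of the value plus 1) for the 10 genes (rows) in the 8 peak lists (columns). Only Cck and Pvalb have values above 0 in all 8 columns, and the H3K9ac value of Cck is 486 bp in the Control ethanol list against 1821 to 2005 bp in the other 3.

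Among the transcription factors, Dlx1 (GRCm38, chr2:71528113-71533981) had no peak of either mark in its gene body or within 10.0 kb. The peak nearest to it lay 12.6 to 47.3 kb away, depending on the list. Its neighbour Dlx2 (chr2:71543408-71546754, minus strand) had a single peak, of 163 bp, in the H3K27ac list of Control ethanol. That peak lay 34 to 196 bp downstream of the start site, inside the gene, and its score stood at percentile 34.8 of the peaks in its list (by rank). Dlx2 was at 0 in the other 7 lists.

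Dlx5 (chr6:6877801-6882068) and Dlx6 (chr6:6863334-6867970), which lie side by side as the other Dlx pair does, were covered in 1 list only, H3K27ac of ACSS2 KD ethanol. This list held more peaks than any other. Dlx6 had 479 bp at its lower-coordinate end, at percentile 64.3 of the list. Dlx5 had 155 bp at its upper-coordinate end, at percentile 3.33, which is close to the authors' threshold. No strand or start site of these 2 genes was used here.

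Lhx6 (chr2:36081950-36105992, minus strand) had H3K27ac peaks in the 2 ethanol lists but not in the untreated lists, with 183 bp in Control and 176 bp in ACSS2 KD. They overlapped each other 90 to 330 bp downstream of the start site at position 36105408, the most upstream of the 3 start sites in RefSeq. Their scores stood at percentile 13.7 in Control ethanol and 61.2 in ACSS2 KD ethanol.

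Pvalb, the calcium buffer of fast-spiking basket cells (chr15:78191112-78206400, minus strand), has 2 start sites in RefSeq, and the peaks marked 1 of them. No list had a peak within the 250 bases before or the 50 after the first start site, at position 78206400. All 8 lists had one in the same window of the second, at 78204237. In the 718 bp region around that second site, from 379 bp upstream to 338 bp downstream, H3K9ac covered 565, 380, 465 and 165 bp. H3K27ac covered 421, 410, 389 and 235 bp there. For both marks the ACSS2 KD ethanol list had the lowest value. The scores were modest, with the best H3K9ac peak of each list at percentiles 12.9 to 37.0 and the best H3K27ac peak at 16.8 to 48.4.

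The second start site lies 2163 bp from the upper gene end, so the 2.0 kb window cuts through this region. The covered bases near the ends of Pvalb, 142, 209, 217 and 2 bp of H3K9ac and 24, 195, 204 and 187 bp of H3K27ac, therefore depend on where each peak stops, and the region values above describe the gene better. The 250 bases upstream of the 2 start sites (RefSeq, GRCm38.p6, minus strand) are shown because they separate the acetylated from the unmarked start of the same gene. Capitals mark CG dinucleotides.
Pvalb second start site, chr15:78204238-78204487: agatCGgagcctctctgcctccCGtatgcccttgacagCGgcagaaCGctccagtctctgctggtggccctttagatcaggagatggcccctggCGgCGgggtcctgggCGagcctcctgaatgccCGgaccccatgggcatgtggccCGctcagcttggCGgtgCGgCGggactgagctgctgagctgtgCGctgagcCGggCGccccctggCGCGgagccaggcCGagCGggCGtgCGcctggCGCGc
Pvalb first start site, chr15:78206401-78206650: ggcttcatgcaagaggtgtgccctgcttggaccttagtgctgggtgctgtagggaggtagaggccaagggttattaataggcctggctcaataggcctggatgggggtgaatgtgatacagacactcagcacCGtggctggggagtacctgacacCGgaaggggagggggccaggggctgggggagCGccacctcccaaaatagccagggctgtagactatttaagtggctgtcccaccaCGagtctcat

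The second start site had 23 CG dinucleotides and a ratio of observed to expected CG of 0.72. The first had 4 and a ratio of 0.198. A further H3K27ac region lay downstream of Pvalb, 8325 bp beyond the gene and 7769 bp from Ift27, a gene of ciliary transport. It was covered in all 4 H3K27ac lists, with 522, 620, 622 and 851 bp, and in the H3K9ac lists with 323, 0, 0 and 254 bp. Which gene, if any, this region serves was not tested.

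Sst, the peptide of dendrite-targeting interneurons (chr16:23889573-23891342, minus strand), had no peak within 2.0 kb of its ends in any list. It had an acetylated region of both marks in all 8 lists, 6685 to 8133 bp upstream of its start site (chr16:23897529-23898977). The next protein-coding gene, Rtp2, lay 26571 bp from it, and Sst itself 6187 bp. H3K9ac covered 482, 314, 342 and 777 bp of this region, and H3K27ac covered 493, 644, 1135 and 1220 bp. The H3K27ac values were lower in both Control lists than in both ACSS2 KD lists, which are also the 2 longest H3K27ac lists. The best H3K27ac peak of each list stood at percentiles 56.2, 75.4, 75.7 and 70.7 of its own list, ranks that are not compared between lists of different length. A smaller H3K27ac region, 8854 to 9073 bp upstream, was present in the Control untreated and ACSS2 KD ethanol lists only.

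The start of Sst is known for its cyclic AMP response element, the palindrome TGACGTCA through which CREB switches the gene on. It lay at bases -48 to -41 from the start site (capitals) on chromosome 16, and the window is shown because the peaks of this gene lie kilobases away from it.
Sst: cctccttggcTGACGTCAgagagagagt

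The window from 250 bases before to 50 after the start site was searched on both strands for 5 motifs in the 21263 RefSeq start sites of protein-coding genes, and TGACGTCA was found in 2.23% of them. The shorter TGACGTC, which is contained in it, was found in 3.84%. Vip (chr10:5639193-5647617, plus strand), the peptide of interneurons that inhibit other interneurons, held the shorter form at bases -79 to -73 on chromosome 10 (capitals).
Vip: atcactactgTGACGTCtttcggggag

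Neither start site had a peak in any list. Vip had none in its gene body or within 10.0 kb either, and in every list the nearest peak lay 87.9 to 88.4 kb away, farther than the highest value for Dlx1 or Sst. A match is a description of the sequence, not of binding.

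**Figure D2:**
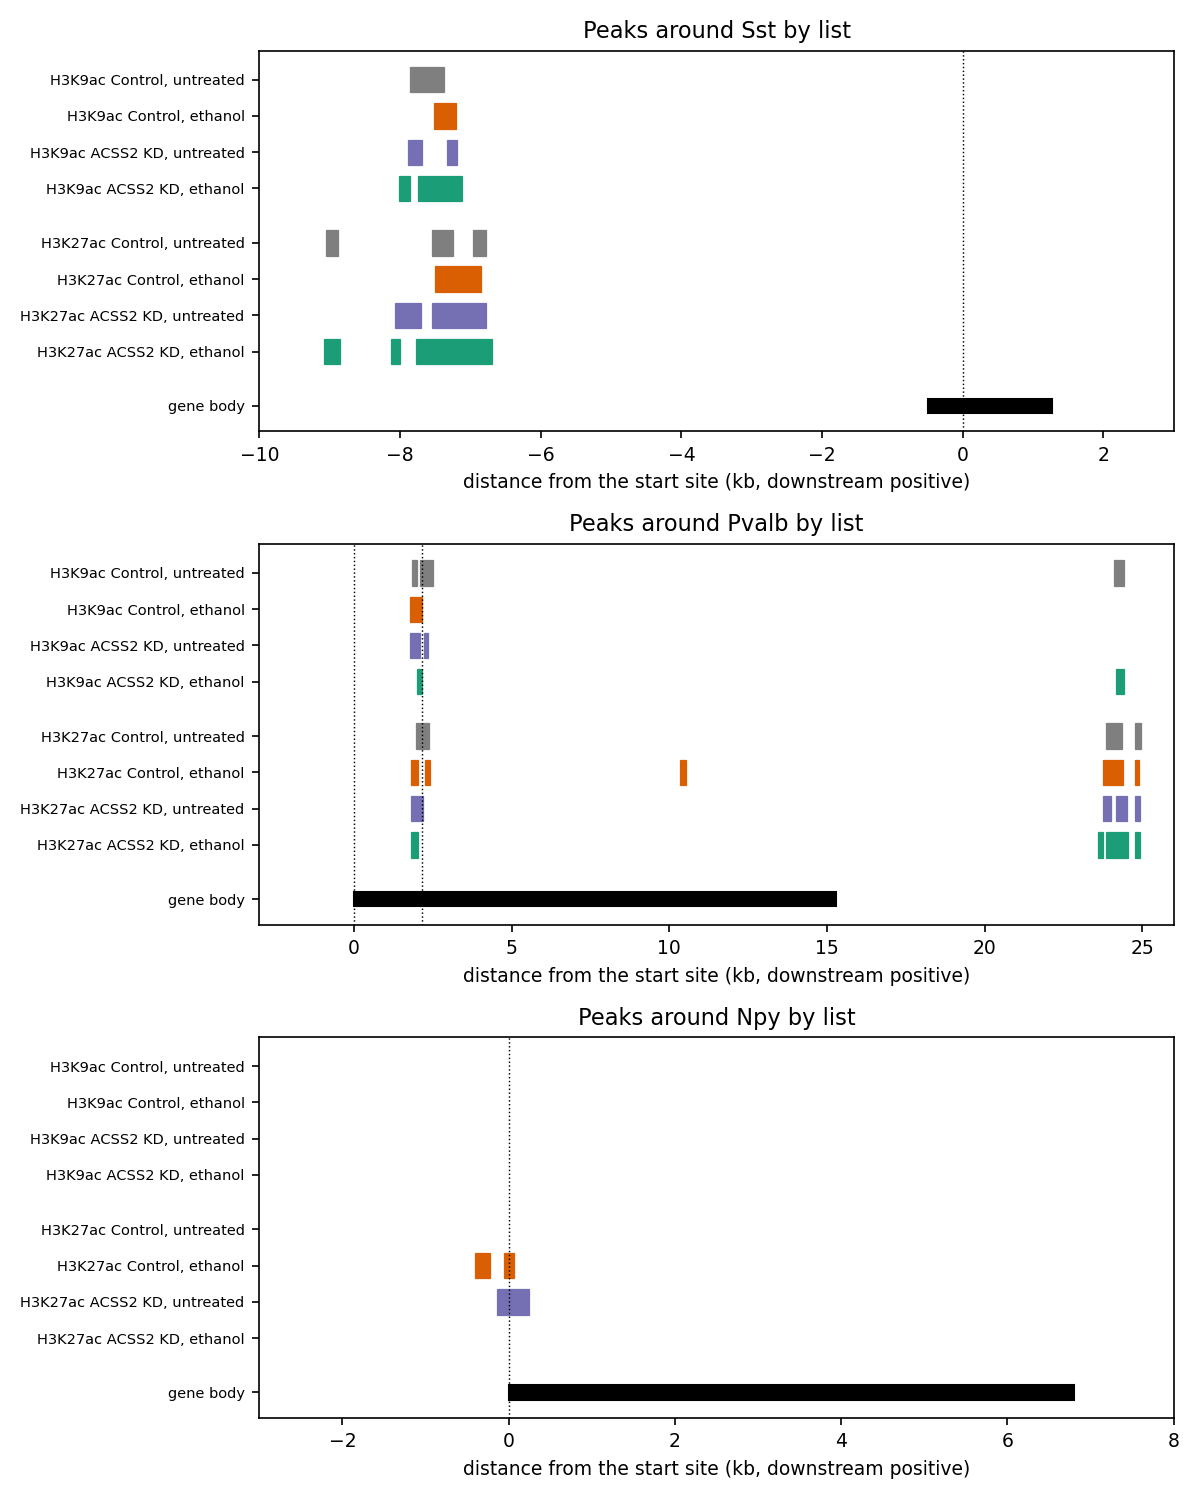
Peaks (coloured boxes, to scale) of the 8 lists around Sst, Pvalb and Npy by distance from the start site in kb, with downstream positive. Dotted lines are RefSeq start sites, the black bar is the gene body, and distances for Pvalb are from its first start site. The Sst peaks lie upstream of an unmarked gene, the Pvalb peaks sit on the second start site, and Npy has peaks in 2 H3K27ac lists.

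Npy, neuropeptide Y, a peptide released by several interneuron types that dampens excitatory transmission (chr6:49822710-49829507, plus strand), had no H3K9ac peak in any list. Its H3K27ac values near the ends were 0, 304, 387 and 0 bp. The Control ethanol list had 2 peaks, of 176 bp at 402 to 227 bp upstream and of 128 bp across the start site. The ACSS2 KD untreated list had 1 peak of 387 bp, from 137 bp upstream to 249 bp downstream. The 2 peaks on the start site stood at percentiles 48.4 and 51.0 of their lists, and the upstream one at 1.7, next to the authors' threshold. The 2 lists with a peak share neither genotype nor treatment, and the longest H3K27ac list had none. The upstream bases (RefSeq, GRCm38.p6, plus strand, CG in capitals) are shown beside those of Dlx2 (minus strand), since both are rich in CG and were marked in few lists.
Npy, chr6:49822460-49822709: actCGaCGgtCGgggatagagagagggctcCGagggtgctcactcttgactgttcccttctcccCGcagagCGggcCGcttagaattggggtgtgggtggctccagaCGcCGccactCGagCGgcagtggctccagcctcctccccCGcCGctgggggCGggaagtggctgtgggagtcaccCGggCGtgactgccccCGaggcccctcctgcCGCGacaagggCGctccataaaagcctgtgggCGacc
Dlx2, chr2:71546755-71547004: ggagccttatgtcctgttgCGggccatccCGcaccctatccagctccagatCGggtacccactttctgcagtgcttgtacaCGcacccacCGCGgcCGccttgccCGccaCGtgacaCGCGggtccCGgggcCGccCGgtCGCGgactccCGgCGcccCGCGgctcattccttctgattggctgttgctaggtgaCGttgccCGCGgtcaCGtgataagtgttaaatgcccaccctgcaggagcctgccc

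CG content is background to these counts, since CG-rich promoters are acetylated in most tissues. With a ratio of observed to expected CG of at least 0.6 in the 250 upstream bases, 7906 of 17492 genes in the RefSeq table (45.2%) were CG-rich. A peak lay in the 300 bp window of 78.9% to 93.1% of these per list, and 7.37% of them had one in 0, 1 or 2 of the 8 lists. Npy (ratio 0.702, 2 lists), Dlx2 (0.89, 1 list) and Dlx1 (0.764, 0 lists) belonged to that minority. Lhx6 had 3 start sites with ratios of 0.548, 0.846 and 0.643 and no peak in their windows. Of the CG-poor promoters, 66.3% had a peak in no list, as did Sst (0.599) and Vip (0.327). Promoter sequences were matched for 8 of the 10 members.

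Cck, cholecystokinin, the peptide of a class of basket cells and also transcribed in many pyramidal cells (chr9:121489824-121495694, minus strand), was the member with the most covered bases. Near its ends H3K9ac covered 1938, 486, 1821 and 2005 bp. The Control ethanol value was the lowest and the other 3 lay close together. H3K27ac covered 2005, 1726, 1855 and 1847 bp, with no list standing apart in the same way.

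Ethanol in Control mice thus went with 1452 fewer covered H3K9ac bases at Cck, a ratio of 0.251. Over the 13436 genes covered in either list the median gene had 278 fewer, and only 0.528% of genes had a more negative change. In ACSS2 KD mice the Cck value was 184 bp higher with ethanol, a ratio of 1.1, where the median of 13668 genes was 80 bp higher. With ethanol, the ACSS2 KD list had 1519 bp more than the Control list, a ratio of 4.13, against 309 bp for the median gene, and 99.3% of 13536 genes had a smaller change. Without ethanol the difference was -117 bp. The comparison of ethanol in Control and that of ACSS2 KD with Control under ethanol share the Control ethanol list, so they are not separate observations of it.

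**Figure D3:**
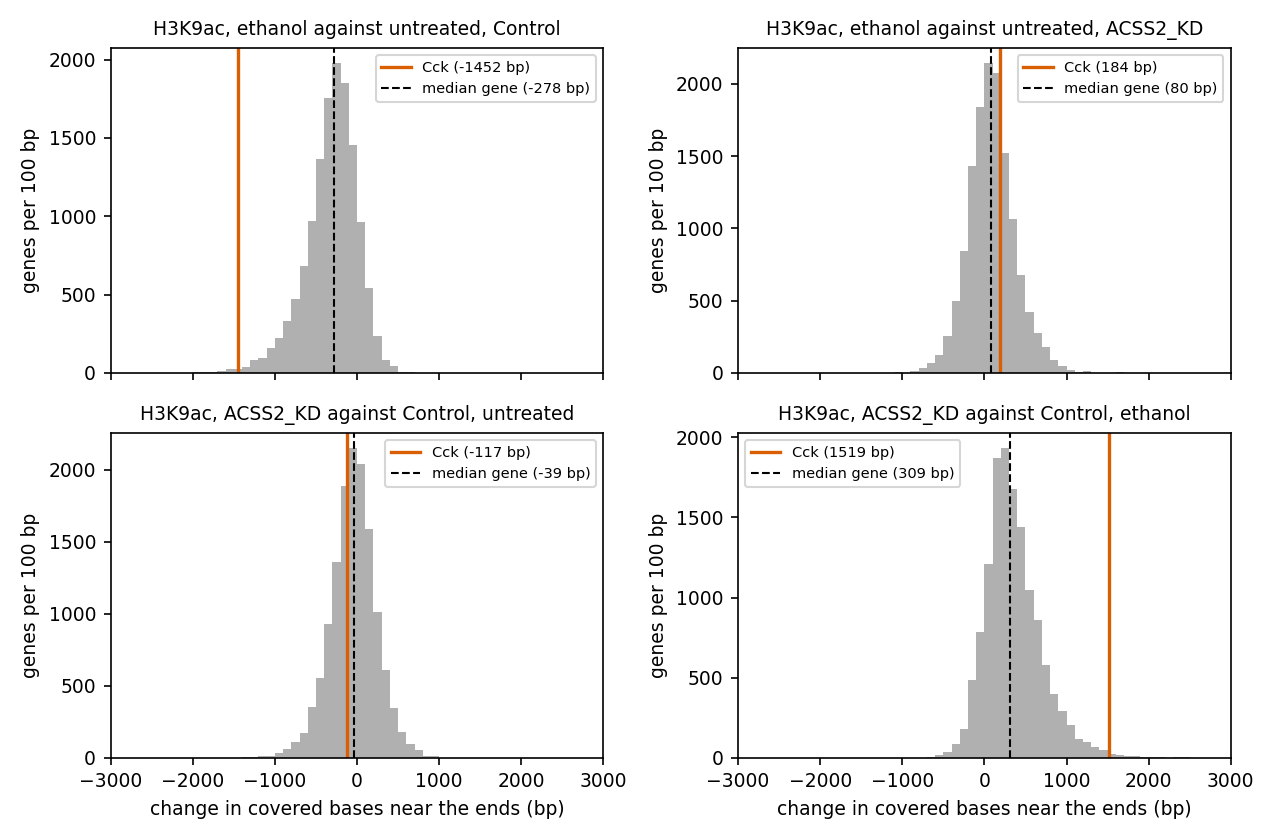
Change in H3K9ac covered bases near the ends (bp, horizontal axis) over all genes covered in either list, as genes per 100 bp bin (vertical axis), for the 4 comparisons. The orange line is Cck and the dashed line the median gene. Cck lies at -1452 bp, far into the lower tail, for ethanol in Control, and at 1519 bp, in the upper tail, for ACSS2 KD against Control with ethanol.

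Within the gene, no H3K9ac peak lay around the start site in Control ethanol. In the region from 455 bp upstream to 709 bp downstream of it, H3K9ac covered 804, 0, 766 and 881 bp, so the Control ethanol list had no peak there while each other list did. H3K27ac covered 1031, 591, 741 and 722 bp of the same region, with a peak in all 4 lists. In the gene body, 856 to 3373 bp downstream, H3K9ac covered 1193, 672, 1754 and 1925 bp. The best H3K9ac peak there stood at percentiles 56.2, 17.6, 79.2 and 71.3 of its own list. H3K27ac in the gene body covered 1680, 1743, 1746 and 2464 bp, with best peaks at percentiles 82.5 to 90.9.

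A further H3K27ac region lay 9262 to 11344 bp upstream of Cck, inside the long noncoding gene Gm38661, which also overlaps Cck. It covered 1277, 987, 1669 and 2035 bp and reached percentile 89.3 in the ACSS2 KD ethanol list. H3K9ac was at 0, 0, 216 and 0 bp there. Where the 2 genes overlap, a peak cannot be assigned to one of them. The upstream sequence of Cck (RefSeq, GRCm38.p6, minus strand, CG in capitals) is shown as the promoter whose H3K9ac peak was missing from 1 list.
Cck, chr9:121495695-121495944: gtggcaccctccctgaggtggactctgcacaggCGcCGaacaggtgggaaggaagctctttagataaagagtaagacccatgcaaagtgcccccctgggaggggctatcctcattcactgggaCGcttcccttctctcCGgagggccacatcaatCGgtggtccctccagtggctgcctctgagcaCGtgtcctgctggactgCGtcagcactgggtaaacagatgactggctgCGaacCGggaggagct

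It had 9 CG dinucleotides and a ratio of 0.4, and was covered in 7 of 8 lists. Of the 9586 CG-poor promoters, 19.9% were covered in 7 or 8 lists. The Cck promoter held the E-box CACGTG at bases -66 to -61, a motif found in 7.84% of the 21263 start sites. Dlx2 held it at bases -142 to -137 and -42 to -37. The homeodomain core TAATTA, found in 4.53%, was in no member's window. The TATA box sequence TATAAA, found in 12.6%, lay at bases -30 to -25 of Vip, among other places in its window. At 1 Lhx6 start site the sequence lay downstream, at bases 3 to 8, and on the opposite strand, which is not the place of a TATA box.

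**Figure D4:**
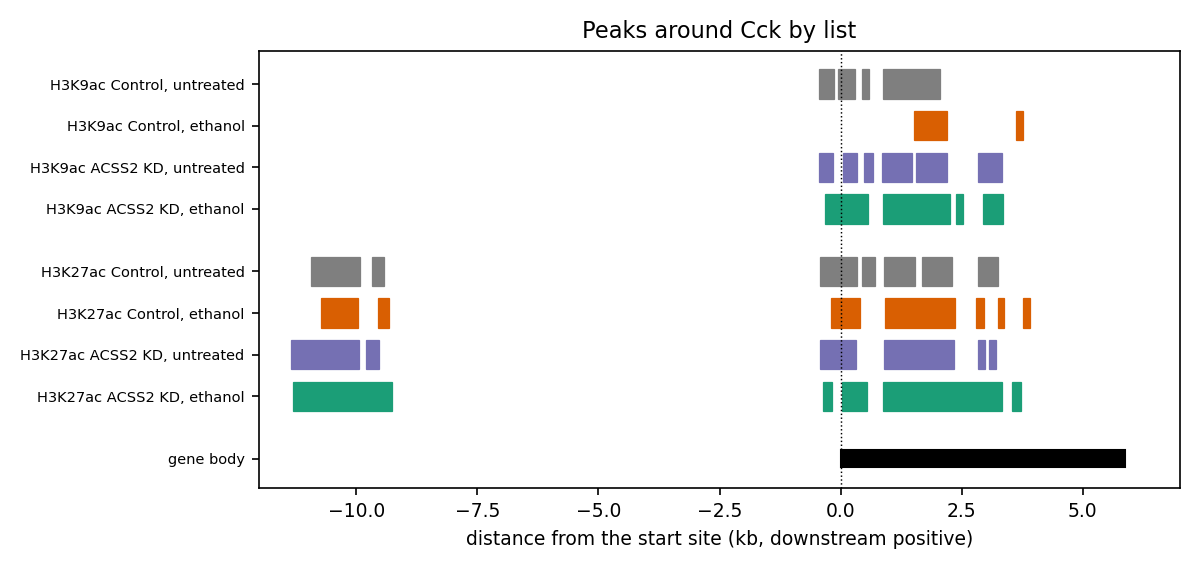
Peaks (coloured boxes, to scale) around Cck in the 8 lists by distance from the start site in kb, with downstream positive. The dotted line is the start site and the black bar the gene body. The H3K9ac list of Control ethanol has no box from 455 bp upstream to 709 bp downstream of the start site, where the other 7 lists have at least 1, and the boxes 9.3 to 11.3 kb upstream are from the H3K27ac lists only, apart from 216 bp in H3K9ac of ACSS2 KD untreated that is outside the collected window.

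Counts over the 10 members followed these genes. A gene was counted as lower or higher when its covered bases near the ends differed by at least 1.5-fold and 200 bp between the lists. For ethanol in Control, H3K9ac was lower at 1 of 2 covered members (Cck) and higher at none, where 27.4% of all covered genes were lower and 1.02% higher. Divided by the covered bases of the whole list, that background became 10.4% lower and 7.55% higher, and Cck remained lower. For ethanol in ACSS2 KD, 1 of 2 was lower (Pvalb, from 217 to 2 bp, and from 465 to 165 bp in the whole region at its second start site) and none higher, against 3.34% and 9.94%. For ACSS2 KD against Control without ethanol, neither was counted, against 8.71% lower and 3.82% higher. With ethanol, Pvalb was lower and Cck higher, against 0.938% and 30.0%, which became 10.7% and 10.0% on the divided scale.

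For H3K27ac, ethanol in Control had 1 of 5 covered members higher (Npy) and none lower, against 5.2% higher and 5.04% lower among all covered genes. In ACSS2 KD, ethanol had 1 of 6 lower (Npy) and 1 higher (Dlx6), against 1.9% and 9.88%. Against Control without ethanol, ACSS2 KD had 1 of 3 higher (Npy) and none lower, against 9.55% and 2.17%. With ethanol, 1 of 7 was lower (Npy) and 1 higher (Dlx6), against 1.19% and 18.5%. On the divided scale ethanol in Control had 3 members higher (Lhx6, Npy and Pvalb) and none lower, against 7.01% and 4.61%. On the same scale the pair for ACSS2 KD against Control with ethanol became 16.7% lower and 5.8% higher, the pair for ethanol in ACSS2 KD 4.63% and 4.83%, and the pair without ethanol 6.05% and 5.66%. Each of these counts is at most 3 genes and the same list enters 2 comparisons, so they were read gene by gene only.

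The genes whose 8 values lay nearest to those of Cck were Mapk8ip2, Rpl21 and Acly, with mean absolute differences of 106.0, 129.0 and 153.0 bp over the 8 lists. Mapk8ip2, a scaffold protein of the JNK pathway, had 1985, 650, 1740 and 1877 bp of H3K9ac. The nearest to Pvalb were Sbp (53.2 bp), Cdc6 (57.5 bp) and D8Ertd738e (67.2 bp). This match used the values of Pvalb near its ends, which depend on the edge of the window, and not those of the region at its second start site. No other member was covered in enough lists for this comparison.

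Receptors of these peptides were covered far more often than the peptides themselves. Of 13 receptors, 10, 10, 9 and 9 had an H3K9ac peak near an end and 10, 11, 12 and 11 an H3K27ac peak. These are 69.2% to 76.9% for H3K9ac and 76.9% to 92.3% for H3K27ac. Over all protein-coding genes the shares were 57.5% to 61.3% and 63.9% to 66.8%, the background also for the GABA genes and other peptides below. With ethanol in Control, H3K9ac was lower at 7 of 11 covered receptors and higher at none, where 27.4% of all covered genes were lower and 1.02% higher, and the median of the 11 covered was -513 bp against -278 bp for all covered genes. On the divided scale 5 were lower and 1 higher, against 10.4% and 7.55% of all covered genes. The somatostatin receptor gene Sstr4 went from 2768 to 400 bp, the VIP receptor gene Vipr1 from 2973 to 1205 bp, and Sstr1 from 1336 to 250 bp. In ACSS2 KD, 4 of 9 covered receptors were higher with ethanol and none lower, against 9.94% and 3.34% of all covered genes, among them Sstr4 (1598 to 2893 bp), Sstr1 (659 to 1425 bp) and Npy2r (799 to 1206 bp, not counted on the divided scale). Without ethanol, ACSS2 KD was lower than Control at 4 of 10 covered receptors, against 8.71% of all covered genes, and the ACSS2 KD untreated value of Sstr4 lay between the 2 Control values. H3K27ac of Sstr4 was 3226, 2523, 2863 and 3562 bp, with no such gap.

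The GABA synthesis and transport genes split. Peaks of both marks were found near the ends of 4 of 6 in every list, and ACSS2 KD ethanol had 5 of 6 for H3K27ac. Gad1, the enzyme that makes most GABA, had 1160, 433, 977 and 1331 bp of H3K9ac and 1106, 867, 1818 and 1823 bp of H3K27ac. The lowest value of both marks was in Control ethanol. Slc32a1, the vesicular GABA transporter, had no peak in any list, and Gad2, the synaptic form of the enzyme, had 174 bp in 1 list (these 2 genes were chosen after their values were seen). The GABA transporter gene Slc6a11 went from 802 to 395 bp of H3K9ac with ethanol in Control, a difference not counted on the divided scale.

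Of 12 other peptide genes, 2, 2, 4 and 6 had an H3K9ac peak near an end, and 5, 7, 6 and 7 an H3K27ac peak. Penk, which encodes the enkephalins, had 0, 139, 428 and 345 bp of H3K9ac. Pdyn, the dynorphin precursor made by dentate granule cells, had 0, 0, 573 and 515 bp. Both had more covered bases in the 2 ACSS2 KD lists than in the 2 Control lists. With lists of equal length Pdyn was at 0 in all 4, and on the divided scale Penk was not counted as higher with ethanol (303 against 182 bp). Nmb, neuromedin B, had 2454, 1353, 1582 and 1802 bp of H3K9ac and 1322, 2107, 1924 and 2357 bp of H3K27ac, so that with ethanol in Control its H3K9ac value was lower and its H3K27ac value higher. On the divided scale the first was not counted (1776 against 2296 bp). Of 20 other transcription factors of inhibitory neurons, 9, 8, 10 and 10 had an H3K9ac peak. Among those lower with ethanol in Control were Nr2f1 (3189 to 2004 bp, not counted on the divided scale) and Satb1 (1167 to 410 bp). Of the 9 of these genes covered in that comparison, 5 were lower and none higher, against 27.4% and 1.02% of all covered genes. On the divided scale 3 were lower and 0 higher, against 10.4% and 7.55%.

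The low share of the interneuron genes can be set beside other cell types of the same tissue. Of the excitatory neuron markers, 15 of 20 were covered in all 8 lists, as were 7 of 10 astrocyte markers, 6 of 10 oligodendrocyte markers, 1 of 10 microglia markers and 19 of 20 housekeeping genes. The 10 interneuron genes, with 2 of 10, lay nearest to the microglia markers among these lists. Of 21 markers of interneuron subtypes, 8 were covered in all 8 lists, and several of these genes are also active in other neurons. With ethanol in Control, H3K9ac was lower at 11 of 18 covered excitatory neuron markers and 4 of 19 covered housekeeping genes. These became 4 and 0 on the divided scale. In the same comparison 5 of 9 covered astrocyte, 3 of 8 covered oligodendrocyte and 2 of 3 covered microglia markers were lower, which became 4, 0 and 2. The share over all covered genes was 27.4%, and 10.4% on the divided scale. The change at Cck thus came in a comparison in which genes of neurons and of glia had lower values too, and the part of any cell type in it was not tested.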

How the data were processed

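The authors' deposited files are 8 peak lists of 6 columns without a header, 1 per mark and condition. The score in the deposited lists was read as a −log10 of the q-value, because its lowest values met 3.0, the value for the false discovery rate of 0.001 in the labels. Tools named in the submitters' processing notes are MACS2, STAR 2.5.2a, bedtools and bcl2fastq, with the GRCm38 (mm10) genome. How replicates were pooled, and the depth, are not given in the sources used here.

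Peaks on the assembled chromosomes were placed on genes of the RefSeq table (GRCm38.p6) with Python 3.11.15, numpy 2.4.6 and pandas 2.3.3. Covered bases were counted within 2.0 kb of the gene ends, and the counting was checked on simulated peaks. Promoter sequences are from RefSeq. Scores ranked peaks within a list only. The members and gene lists were chosen with earlier results of these data known. All members are named. In other lists, up to 3 genes per direction and comparison with the largest change are named, as are the 3 genes with values nearest to a member covered in at least 4 lists. A gene that this rule names is not reported here. Windows, list lengths, score, overlap, fold and scaling were varied.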

Additional observations from a re-analysis of the deposited data

Results flagged for a closer look

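At 3 genes the ethanol change, without scaling, had opposite signs in the 2 genotypes, and with 1 list per group the difference was not tested. For Cck, H3K9ac near the ends changed by -1452 bp in Control and by 184 bp in ACSS2 KD. With lists of equal length the Cck changes were -1452 and 484 bp. On the divided scale they were -1175 and -12 bp, so the opposite sign depended on the scale. For Npy, H3K27ac changed by 304 bp in Control and by -387 bp in ACSS2 KD. For Pvalb, H3K9ac changed by 67 bp in Control and by -215 bp in ACSS2 KD, and these values depend on the edge of the window. Over the whole region at its second start site the values were lower with ethanol in both genotypes, at 565 and 380 bp in Control and 465 and 165 bp in ACSS2 KD.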

How the results depend on the processing

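Cck stayed lower for H3K9ac with ethanol in Control, and higher in ACSS2 KD than in Control with ethanol, under each of the 6 alternatives run for calls (windows of 1 kb, 5 kb and the gene body with 10 kb, lists of equal length, a fold of 2 and division by the covered bases of the list); with a 1 kb window its changes were -938 and 1005 bp. Npy and Dlx6 kept their calls too. For Pvalb, the H3K9ac changes with ethanol in ACSS2 KD and for ACSS2 KD against Control with ethanol were 0 and 0 bp at 1 kb, and -46 and 39 bp over the gene body with 10 kb, where the second reversed. They were -300 and -215 bp at 5 kb, -215 and -207 bp with lists of equal length and -209 and -273 bp after division, and stayed lower there and at a fold of 2.

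With a 1 kb window, members with an H3K9ac peak numbered 1, 0, 1 and 1, and those with an H3K27ac peak 1, 4, 2 and 4. H3K9ac then had 0 lower in both comparisons named for Pvalb, and H3K27ac 1 lower (Cck) with ethanol in Control. At 5 kb, H3K27ac had 2 lower in ACSS2 KD against Control with ethanol. Over the gene body with 10 kb, H3K9ac had 2 lower with ethanol in Control, 0 lower and 1 higher (Sst) in ACSS2 KD, 1 lower in ACSS2 KD against Control without ethanol, and 0 lower and 2 higher with it. H3K27ac then had 2 higher with ethanol in ACSS2 KD, 2 higher in ACSS2 KD against Control without ethanol and 3 with it. With lists of equal length, 3 members had an H3K27ac peak in ACSS2 KD ethanol, and 2 were lower with ethanol in ACSS2 KD. With peaks at or above the median score, 1, 0, 1 and 1 members had an H3K9ac peak, and 1, 3, 2 and 3 an H3K27ac peak. An overlap of at least 100 bp left 1 in H3K27ac of Control untreated and 1 in H3K9ac of ACSS2 KD ethanol. Division by the covered bases of the list gave 3 higher for H3K27ac with ethanol in Control. A fold of 2 moved no count. The cause was not tested.

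No paired analysis was possible because each group has 1 list. Depth is unknown, so a missing peak means only that none passed the authors' threshold, and no value carries an error between mice.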
